A study of Nematostella vectensis with 9 samples.

Results

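In the sea anemone Nematostella vectensis, a cnidarian, a set of 43 gene models stood apart in embryos with dominant negative TCF and not in embryos with a BMP2/4 morpholino. The set held 28 models that were higher and 15 that were lower with dominant negative TCF, of 21946 models with at least 1 count. Members were chosen from the measured levels themselves, given as CPM (the count of a model over the library's sum on gene models, times 1e6). All 3 DnTCF libraries had to lie above, or all below, each of the other 6 libraries. The DnTCF mean had to be at least 1.5-fold from both other group means, the highest group mean at least 5 CPM, and the BMP24 KD mean within 1.3-fold of the dextran mean. The differences that follow describe this choice and are not evidence for it.

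Poly-A RNA of microinjected embryos was sequenced at 24 h after fertilization in 3 groups of 3 libraries each, which the series' design text calls biological replicates. The DnTCF embryos had received RNA for a dominant negative NvTCF, the BMP24 KD embryos a morpholino (an antisense oligonucleotide that blocks translation or splicing) against NvBMP2/4, and the control embryos dextran. All embryos had been injected and were kept at 17 °C in diluted seawater. Strain, the number of embryos per sample and the cells that took up each agent are not stated in the labels. For the control embryos only dextran is named, and no control RNA or control morpholino.

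TCF proteins bind DNA and, together with β-catenin, switch on the targets of canonical Wnt signalling, and without β-catenin they can repress them. A dominant negative TCF keeps its DNA-binding part and lacks the part that binds β-catenin, so it holds target genes off. In cnidarian embryos canonical Wnt signalling is known for its part in setting the oral-aboral axis and in gastrulation, and BMP2/4, a secreted ligand of the BMP family, for its part in the second, directive axis.

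Depth on gene models lay between 1936858 counts (DnTCF 2) and 5994290 counts (DnTCF 1). Libraries stood apart within groups as well as between them. BMP24 KD 1 was the least like the rest, with a median correlation of 0.88 with the other libraries on log2(CPM + 1), where the other libraries had 0.93 to 0.98. In dextran 3, 87.8% of counts had no assigned sequence, against 39.6% to 58.9% elsewhere. The share was 41.1%, 40.3% and 39.6% in DnTCF 1, 2 and 3. Each of the other 6 libraries had more, from 42.0% in BMP24 KD 2 upward, so this share divided the libraries as the rule does. The mitochondrial sequence stood at 498 CPM in BMP24 KD 1 and 278 CPM in BMP24 KD 2, against 8.72 to 75.6 CPM in the other 7 libraries. The 18S sequence stood at 5871 and 8791 CPM in the same libraries, against 1237 to 4343 CPM. The part of these libraries and values in the results was not tested, and counts without BMP24 KD 1 and dextran 3 are given below. The models of the targeted genes were not analysed here, since the files pair the 21946 model numbers with no gene name and 0 of them were found in RefSeq's table. The known roles of the members are therefore not given, and only 4 members are named by number.

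The number of members was small beside all models and beside the other groups. The 28 higher models were 0.232% and the 15 lower models 0.124% of the 12054 models past 5 CPM. Of those 12054, 5613 also had dextran and BMP24 KD means within 1.3-fold. Among the 5613, all 3 DnTCF libraries lay above the other 6 for 92 models and below them for 32, and 64 and 17 of these fell short of 1.5-fold. With the groups' roles exchanged, the same rule gave 104 higher (0.863%) and 93 lower models (0.772%) that set BMP24 KD apart, and 243 higher (2.02%) and 73 lower models (0.606%) that set dextran apart. Without regard to fold, 1.21% of the models past 5 CPM had all DnTCF libraries above the other 6 and 0.489% had all below.

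Models lay close to each threshold on both sides. The lowest fold from the nearer group mean was 1.56 among the higher and 1.52 among the lower members, and models just outside stood at 1.4996 and 1.4966. The ratio of the nearest libraries across the divide, called the gap, was at least 1.0086 among the higher members, and the closest model outside had 0.99619. For the lower members these values were 1.0471 and 0.99934. The ratio of the BMP24 KD and dextran means reached 1.2908 among the higher and 1.2978 among the lower members, and began at 1.3134 and 1.3128 outside. The smallest highest group mean was 5.65 CPM among the higher and 5.31 CPM among the lower members, and the nearest excluded models had 4.59 and 4.36 CPM.

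Model 1099 was the member with the widest gap and the largest fold among the 28 higher models. Its levels were 49.2, 17.6 and 38.0 CPM in DnTCF 1, 2 and 3, on 295, 34 and 171 counts. In dextran 1, 2 and 3 they were 8.10, 6.16 and 1.29 CPM, and in BMP24 KD 1, 2 and 3 they were 1.97, 6.13 and 5.73 CPM. The lowest DnTCF library was 2.17 times the highest of the other 6, and DnTCF 2, the shallowest library, held less than the other DnTCF libraries. The means were 34.9 ± 16.1 CPM with DnTCF, 5.18 ± 3.51 with dextran and 4.61 ± 2.30 with BMP24 KD (SD, n = 3 each), a ratio of 6.74 to dextran and 7.57 to BMP24 KD. In edgeR's fit the log2 fold change was 2.73 against dextran (SE 0.587, adjusted p = 0.335) and 2.81 against BMP24 KD (SE 0.584, adjusted p = 0.911), so it did not pass in either comparison. DESeq2's Wald test called it in both (log2 fold change 2.72, adjusted p = 0.00258, and 2.80, adjusted p = 0.0130).

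Only for model 1099 did the counting-error intervals of the nearest libraries not overlap. Its 34 counts in DnTCF 2 gave an exact Poisson 95% interval of 12.2 to 24.5 CPM, and the 45 counts in dextran 1 gave 5.91 to 10.8 CPM. For the other 27 higher and all 15 lower members, the intervals of the nearest DnTCF library and the nearest other library overlapped. These intervals cover counting error only. They were computed for the members alone, so no share over all models stands beside these counts. The rule had also chosen the members on the same libraries' values, so the counts are a description.

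Model 133491, with the next widest gap, stood at 22.2, 24.8 and 19.5 CPM in DnTCF 1, 2 and 3. The dextran libraries had 13.1, 10.3 and 6.77 CPM, and the BMP24 KD libraries 12.8, 11.4 and 5.21 CPM. The DnTCF libraries lay close together, and the lowest of them was 1.49 times the highest other library. Its means were 22.2 ± 2.62 with DnTCF, 10.1 ± 3.19 with dextran and 9.80 ± 4.04 CPM with BMP24 KD (SD, n = 3 each), with a log2 fold change of 1.14 against dextran (SE 0.455, edgeR adjusted p = 0.953) and 0.97 against BMP24 KD (SE 0.451, edgeR adjusted p = 0.911). It was the only higher member that also passed the rule with each of the 9 libraries left out in turn. With BMP24 KD 1 and dextran 3 left out together, it failed the rule.

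**Figure D1:**
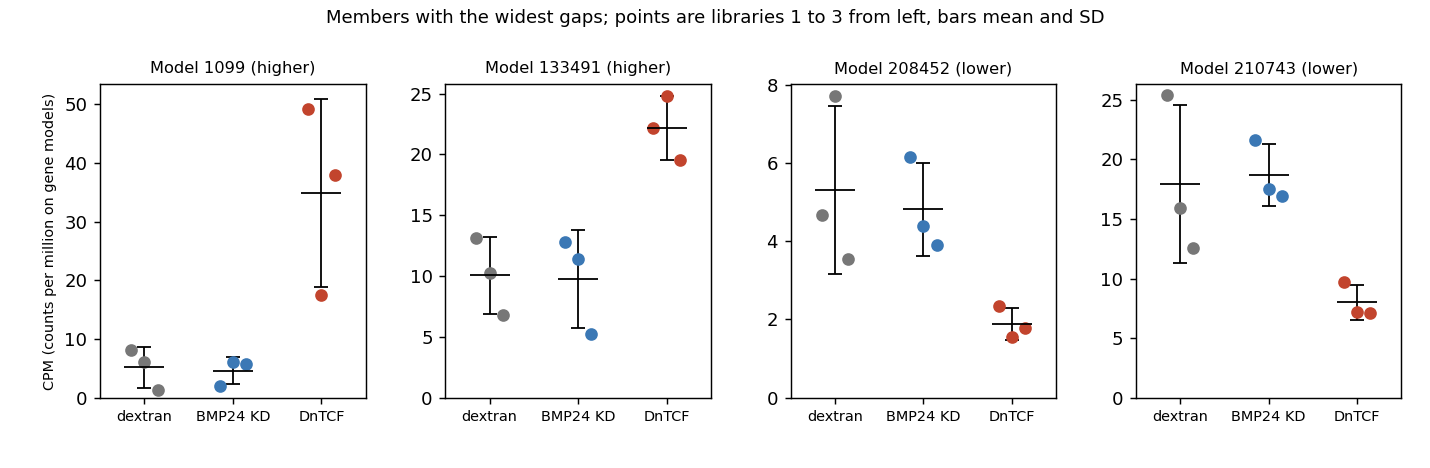
CPM in each library (points, libraries 1 to 3 from left) with mean and SD (bars, n = 3) for the 2 higher and 2 lower members with the widest gaps. DnTCF points lie apart from the others in all 4 panels, by 2.17 times for model 1099 and by 1.49, 1.52 and 1.3 times for the other models, left to right.

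The remaining higher members had narrower gaps, and some had larger ratios of means than model 133491. Over all 28, the ratio of the DnTCF mean to the dextran mean had a median of 2.06 (range 1.61 to 6.74) and that to the BMP24 KD mean a median of 1.91 (1.56 to 7.57). Of the 28, 10 were at least 2-fold from both means. The gap was at least 1.2 for 7 members and under 1.1 for 11. Highest group means were under 10 CPM for 7 members, from 10 to 50 CPM for 15 and at least 50 CPM for 6 (levels not corrected for model length).

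Model names carry a gene prediction class and, in most classes, the number of a scaffold (an assembled stretch of the genome) with a serial number. The 39 members with a scaffold number lay on 36 scaffolds. The 10995 such models past 5 CPM lay on 929, which cannot be compared with 36 because it depends on the number of models. A pair of higher members shared scaffold 190, with serial numbers 114 and 116, and no model numbered 115 had a count. The first of the pair stood at 59.7, 75.4 and 55.1 CPM in DnTCF 1, 2 and 3, at 41.6, 28.2 and 32.2 with dextran and at 34.5, 42.9 and 44.5 with BMP24 KD. The second stood at 47.2, 48.5 and 50.0 CPM with DnTCF, at 34.9, 27.2 and 20.6 with dextran and at 17.7, 35.9 and 39.1 with BMP24 KD. In both models the DnTCF libraries were the highest, by 1.24 and 1.21 times. Their levels correlated at r = 0.84 over the 9 libraries and 0.70 over the 6 libraries without DnTCF (Pearson, log2 scale, a description). With TMM, upper-quartile or DESeq2 scaling, number 114 passed the rule under 0 of the 3 and number 116 under 1.

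A second pair of higher members lay on scaffold 18 with the consecutive serial numbers 33 and 34. The first had 20.7, 24.8 and 21.99 CPM in DnTCF 1, 2 and 3, 11.7, 9.75 and 7.42 with dextran, and 5.91, 12.3 and 18.5 with BMP24 KD. The second had 82.6, 68.2 and 75.7 CPM with DnTCF, 56.3, 25.1 and 23.2 with dextran, and 19.2, 56.3 and 48.4 with BMP24 KD. Levels were lowest in BMP24 KD 1 in both models, and the pair correlated at r = 0.90 over 9 libraries and 0.83 over the 6 without DnTCF. For both pairs the rule made the DnTCF libraries the highest, and most higher members were low in BMP24 KD 1 or dextran 3. No r of members that are not neighbours stands beside these values, so they are a description only. Number 33 passed the rule under 0 of the 3 other scalings and number 34 under all 3. The model numbered 35 was almost without counts, with group means of 0.060, 0 and 0.074 CPM for dextran, BMP24 KD and DnTCF. A lower member lay on the same scaffold with serial number 54. Its neighbours did not share its pattern, with DnTCF means of 27.3 CPM for number 53 and 7.18 CPM for number 56 beside dextran means of 27.0 and 5.83 CPM. Whether neighbouring models share reads was not tested. Scaffold 18 held 71 models past 5 CPM and scaffold 190 held 14.

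By prediction class, 18 of the 43 members (41.9%) carried names of the e_gw class, which made up 25.5% of the models past 5 CPM. The class had 14 of the 28 higher and 4 of the 15 lower members. What the class names stand for is not given in the files.

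The higher members moved among the 6 other libraries as well. BMP24 KD 1 or dextran 3 was the lowest of the 6 for 25 of the 28, where the same held for 67.9% of the 5613 models with dextran and BMP24 KD alike. Both were the lowest pair for 16 of the 28, against 29.6% of the 5613 models. The rule used the levels of these 6 libraries, and the 5613 models were not held to its fold, so these shares are a description. By the median over the higher members, taken in each library separately, BMP24 KD 1 stood at 0.512 and dextran 3 at 0.644 of the mean of the 6 libraries. Dextran 1 stood at 1.38, BMP24 KD 3 at 1.33, BMP24 KD 2 at 1.18 and dextran 2 at 0.896. The DnTCF libraries stood at 1.90, 1.91 and 1.98. The 5613 models had medians of 0.764 in BMP24 KD 1, 0.914 in dextran 3 and 0.937 to 1.13 in the other 7 libraries.

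**Figure D2:**
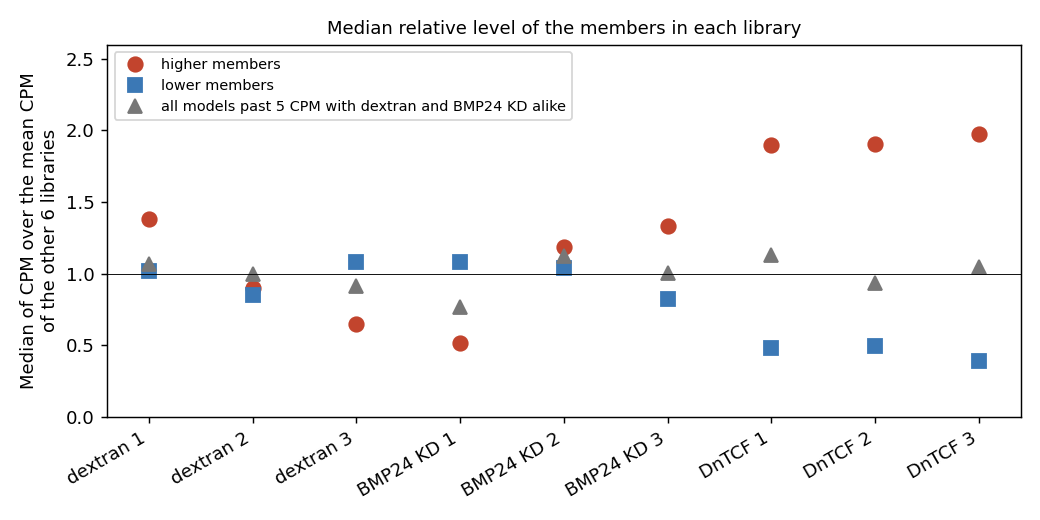
Median over models of CPM divided by the mean CPM of the dextran and BMP24 KD libraries (linear axis), for the 28 higher members, the 15 lower members and the 5613 models with dextran and BMP24 KD alike. The higher members stand at 0.512 in BMP24 KD 1 and 0.644 in dextran 3, and at 1.90 to 1.98 in the DnTCF libraries.

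A higher member of scaffold 5, that with the narrowest gap, had 146, 173 and 153 CPM in DnTCF 1, 2 and 3. Its dextran libraries held 145, 107 and 29.99 CPM and its BMP24 KD libraries 31.7, 101.4 and 141 CPM. The DnTCF values lay just above dextran 1 and BMP24 KD 3. The ratio of means was 1.68 to dextran and 1.73 to BMP24 KD, and 1.25 and 1.301 without BMP24 KD 1 and dextran 3. A member of scaffold 50 had 11.3 CPM in BMP24 KD 1, 73.8 and 90.4 CPM in BMP24 KD 2 and 3, and 99.8, 94.0 and 115 CPM with DnTCF. Of the 28 higher members, 15 kept a ratio of at least 1.5 to both means without BMP24 KD 1 and dextran 3, with a median ratio of 1.77 to dextran and 1.59 to BMP24 KD.

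A member of scaffold 46, also lowest in BMP24 KD 1, kept a ratio above 2 to both means without these libraries. It stood at 42.7, 20.65 and 39.5 CPM in DnTCF 1, 2 and 3, at 13.7, 10.8 and 18.7 with dextran and at 8.86, 16.9 and 11.98 with BMP24 KD. As in model 1099, DnTCF 1 and 3 were well above DnTCF 2. Its mean with DnTCF was 2.38 times that of dextran and 2.73 times that of BMP24 KD, and 2.81 and 2.38 times without dextran 3 and BMP24 KD 1. Among all 28, DnTCF 2 was the lowest DnTCF library for 13 and the highest for 12.

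Of the 15 lower models, model 208452 had the widest gap. It had 2.34, 1.55 and 1.78 CPM in DnTCF 1, 2 and 3, on 14, 3 and 8 counts. The dextran libraries had 4.68, 7.70 and 3.55 CPM on 26, 15 and 11 counts, and the BMP24 KD libraries 6.15, 4.38 and 3.91 CPM on 25, 20 and 15 counts. Each DnTCF library lay below the others, on few counts. Means were 1.89 ± 0.405 with DnTCF, 5.31 ± 2.15 with dextran and 4.81 ± 1.18 CPM with BMP24 KD (SD, n = 3 each). The log2 fold change was -1.45 against dextran (SE 0.567, edgeR adjusted p = 0.931) and -1.53 against BMP24 KD (SE 0.562, edgeR adjusted p = 0.911).

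Model 210743 stood at 9.68, 7.23 and 7.11 CPM in DnTCF 1, 2 and 3, at 25.4, 15.9 and 12.6 with dextran and at 21.6, 17.5 and 16.9 with BMP24 KD. The DnTCF values lay together below all others, and the dextran values spread most. Means were 8.004 ± 1.45 with DnTCF, 17.95 ± 6.64 with dextran and 18.7 ± 2.57 CPM with BMP24 KD (SD, n = 3 each), with a log2 fold change of -1.17 against dextran (SE 0.388, edgeR adjusted p = 0.7495) and -1.42 against BMP24 KD (SE 0.388, edgeR adjusted p = 0.911).

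Over the 15 lower members, the dextran mean was a median of 1.89 times the DnTCF mean (range 1.58 to 3.46), and the BMP24 KD mean a median of 2.33 times (1.52 to 2.66). Of the 15, 6 were at least 2-fold from both. Levels were low: 9 members had a highest group mean under 10 CPM, 4 lay from 10 to 50 CPM and 2 reached at least 50 CPM, and the lowest count of a member in a DnTCF library was 2. By the median over the lower members, taken in each library separately, the DnTCF libraries stood at 0.479, 0.496 and 0.388 of the mean of the other 6. Those 6 libraries ranged from 0.823 to 1.08.

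The lower members did not share the low values in BMP24 KD 1 and dextran 3. Either library was the highest of the 6 for 8 of the 15, where the same held for 27.0% of the 5613 models. Either was the lowest for 5 of the 15, where the same held for 67.9% of the 5613 models. The rule used these levels as well, so the shares are a description. A lower member of scaffold 8 had 171 CPM in BMP24 KD 1 and 175 CPM in dextran 3, and 41.9, 63.6, 38.5 and 42.5 CPM in dextran 1 and 2 and BMP24 KD 2 and 3. Its DnTCF libraries held 33.4, 34.1 and 32.0 CPM, below each of those 4 and furthest below dextran 2. The DnTCF mean was 0.354 of the dextran and 0.395 of the BMP24 KD mean, and 0.628 and 0.818 without BMP24 KD 1 and dextran 3.

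A lower member of scaffold 1835 kept its place under every scaling and with every library left out, also without BMP24 KD 1 and dextran 3 together. It had 12.7, 17.6 and 11.8 CPM in DnTCF 1, 2 and 3, 29.5, 29.8 and 18.4 CPM with dextran, and 22.4, 23.2 and 35.7 CPM with BMP24 KD. DnTCF 2 came close to dextran 3, and the means were 14.0 ± 3.11 with DnTCF, 25.9 ± 6.50 with dextran and 27.1 ± 7.45 CPM with BMP24 KD (SD, n = 3 each). It was the only member of the 43 to do so. In all, 13 of the 15 lower members kept a ratio of at least 1.5 to both means without BMP24 KD 1 and dextran 3.

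**Figure D3:**
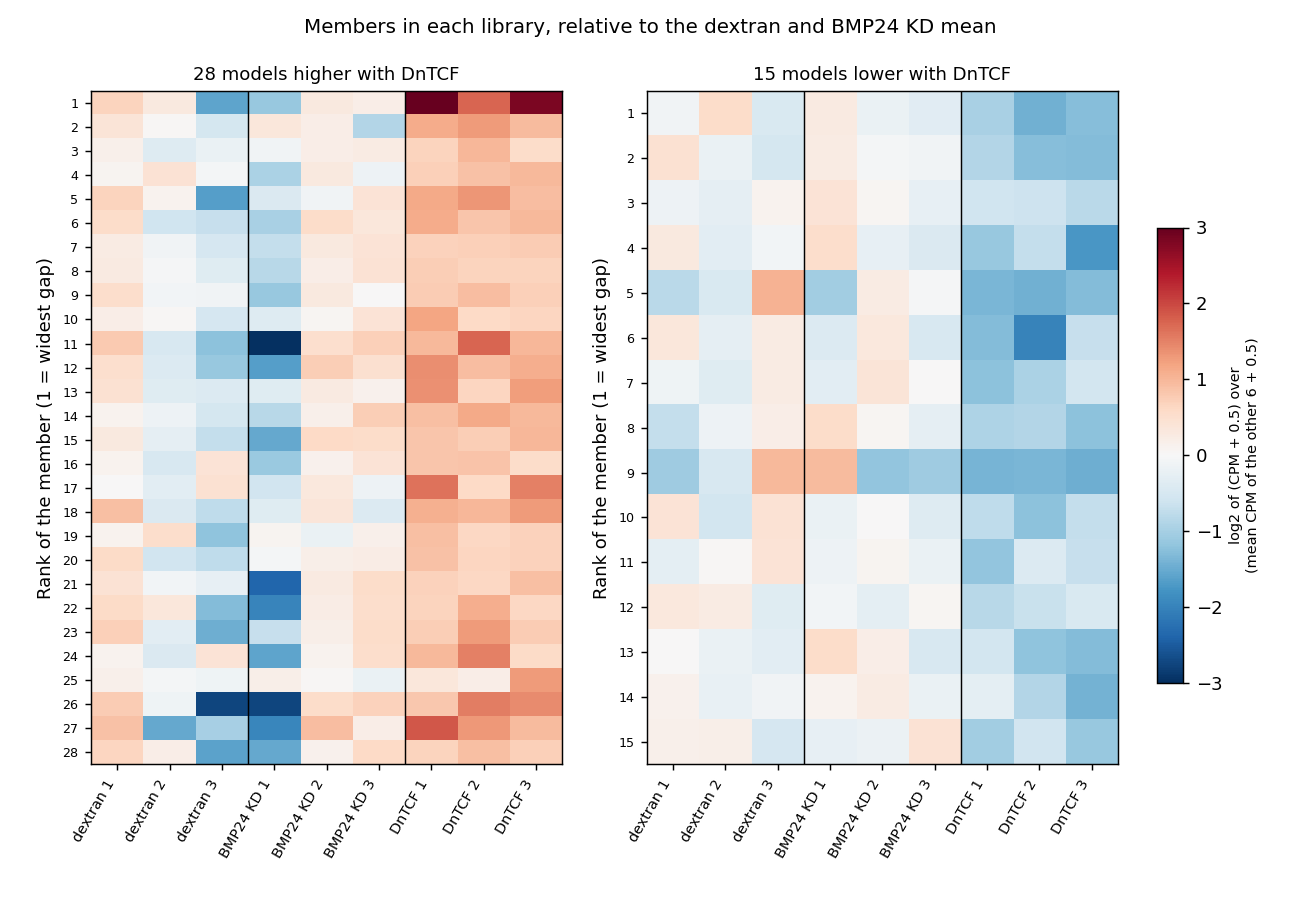
Each member (rows, by rank of the gap) in each library (columns), as log2 of CPM + 0.5 over the mean CPM of the other 6 libraries + 0.5, with higher members on the left and lower members on the right. Rank 1 of the higher members, model 1099, stands out in DnTCF 1 and 3, and many higher members are low in BMP24 KD 1 and dextran 3.

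Spread within groups differed between the sets. The coefficient of variation (SD over mean) had a median over the higher members, taken in each group separately, of 12.8% with DnTCF, 37.9% with dextran and 47.0% with BMP24 KD. Over the lower members the medians were 21.5%, 25.1% and 26.4%. The 5613 models had medians of 20.3%, 21.6% and 35.0%. The rule used these levels, so the values are a description.

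By edgeR's quasi-likelihood test, adjusted over 13559 models (Benjamini-Hochberg), 0 of the 43 members and 0 of all models passed in any comparison. Against dextran, 12 of the 28 higher members had an unadjusted p under 0.05 in their direction, where 1.95% of all models did, and 8 of the 15 lower members, where 2.94% did. Against BMP24 KD the counts were 7 of 28 (0.664% of all models) and 12 of 15 (4.02%). Against the mean of both groups they were 16 of 28 (1.04%) and 13 of 15 (1.29%), with the lowest adjusted p at 0.9996. The rule used the same contrasts, so nothing is read from these shares. Between BMP24 KD and dextran, which the rule held alike, 0 of the 43 reached an unadjusted p under 0.05, where 7.03% of all models were higher and 4.76% lower. Without BMP24 KD 1 and dextran 3, the counts against dextran were 13 of 28 (3.42% of all models) and 8 of 15 (5.32%), and against BMP24 KD 9 of 28 (1.46%) and 6 of 15 (3.09%). The median log2 fold change of the higher members was 1.03 against dextran and 0.86 against BMP24 KD, beside 0.0067 and -0.032 over all models. For the lower members it was -0.95 and -1.35. Limma-voom called 0 members, with 14 of 28 and 7 of 15 at an unadjusted p under 0.05 against dextran (2.09% and 3.0% of all models). DESeq2 called model 1099 alone among the members. Its background was 0.288% of all models higher and 0.384% lower against dextran, 0.00738% and 0.0221% against BMP24 KD, and 0.0148% and 0.0443% against the mean of both. The comparisons share the DnTCF libraries, and those with dextran share the dextran libraries.

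**Figure D4:**
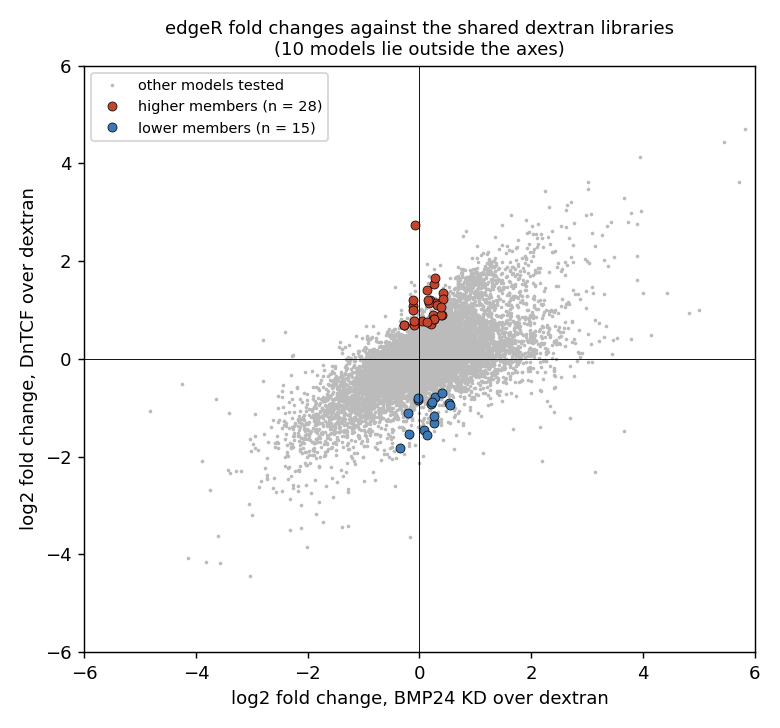
edgeR log2 fold changes of 13549 of the 13559 models tested, BMP24 KD over dextran (x) and DnTCF over dextran (y), with the 28 higher and 15 lower members marked; both axes share the dextran libraries and 10 models lie outside them. Members lie near 0 on the x axis, as the rule requires, and model 1099 is the highest of them at 2.73.

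The makeup of the set moved with the scaling of the libraries. With CPM 65.1% of the 43 were higher. TMM scaling gave 32 higher and 24 lower models (57.1% higher), upper-quartile scaling 28 and 26 (51.9%) and DESeq2 size factors 23 and 28 (45.1%). TMM's factor for BMP24 KD 1 was 0.779, against 0.94973 to 1.0975 for the other libraries. Under all 3 scalings 14 of the 28 higher and 9 of the 15 lower members still passed, model 1099 and the other named models among them.

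Leaving out libraries changed which models passed. Without BMP24 KD 1, 21 models were higher, 12 of them members, and 41 were lower, 13 of them members. Without DnTCF 2, 151 were higher, 25 of them members. Without BMP24 KD 1 and dextran 3 together, 27 were higher, 11 of them members, and 56 were lower, 8 of them members. Model 1099 failed the rule without dextran 3 and without BMP24 KD 2, when the ratio of the BMP24 KD to the dextran mean became 0.647 and 0.743. Model 208452 failed it without dextran 2 and model 210743 without dextran 1. Without BMP24 KD 1 and dextran 3 together, models 133491 and 208452 failed it, and models 1099 and 210743 passed. With all 9 libraries left out in turn, 1 higher and 3 lower members passed each time. In whole embryos, a change in the number of cells that express a gene and a change in RNA per cell cannot be told apart for any of these models.

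**Figure D5:**
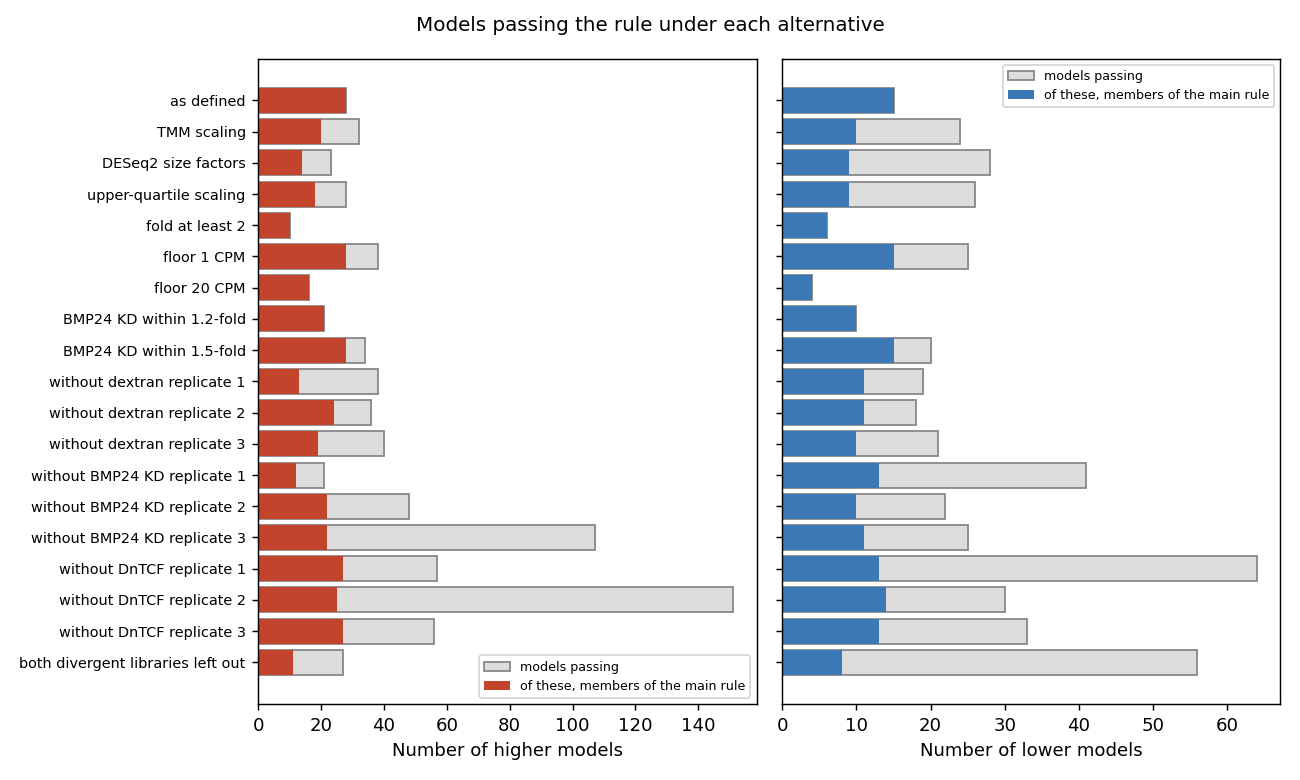
Number of models passing the rule as defined and under each alternative (bars from 0), with the share that are members of the original 28 or 15 in colour. Bars reach 151 higher models without DnTCF replicate 2 and 64 lower models without DnTCF replicate 1. The coloured part is 11 and 8 without both divergent libraries, BMP24 KD replicate 1 and dextran replicate 3. It is smallest at 10 higher models with a fold of at least 2 and at 4 lower models with a floor of 20 CPM.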

How the data were processed

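The authors deposited, for each library, a table of whole-number counts of reads on each reference sequence. FastQC and Bowtie2 2.2.0 are named in the submitters' processing notes. The reference held JGI Nemve1 gene models, an 18S, a 28S and a mitochondrial sequence, per the row names. The counting program, strand setting and treatment of multiply matching reads were not stated in the labels. Absent rows were entered as 0. Only gene models entered library sums and tests; the row without a sequence name held 39.6% to 87.8% of counts. CPM was the count over the library's sum on gene models, times 1e6, and the members were found with the rule in the first paragraph. Counts were tested with edgeR 4.0.16 (R 4.3.3; filterByExpr, TMM, glmQLFit, glmQLFTest), fitting 3 group means to the 9 libraries; standard errors came from the F statistic. DESeq2 1.42.0, limma 3.58.1 (voom), other scalings, filters and thresholds, the replicate block and leaving out each library were alternatives. The pipeline was tested on simulated data. The members named by number are the 2 with the widest gap in each direction; those given by scaffold were chosen after their values were seen. The members and lists were chosen with earlier results of these data known. The gene lists (Wnt, BMP, endomesoderm, aboral, muscle, cnidocyte and neural genes) need gene names and were not used. Where samples of a group were not separate cultures, p-values measure only the spread between these samples.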

Additional observations from a re-analysis of the deposited data

How the results depend on the processing

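Counts of members were sensitive to settings in both directions. The lower models numbered 24 with TMM, 28 with DESeq2 size factors and 26 with upper-quartile scaling. A fold of at least 2 left 10 higher and 6 lower, a floor of 20 CPM 16 and 4, and a floor of 1 CPM gave 25 lower. Leaving out each library gave 21 to 151 higher and 18 to 64 lower models. Counts moved by over 1.5 times without BMP24 KD 1 (41 lower), BMP24 KD 2 (48 higher), BMP24 KD 3 (107 higher, 25 lower), DnTCF 1 (57 and 64), DnTCF 2 (151 and 30) and DnTCF 3 (56 and 33); fewer libraries make the condition of no overlap easier to meet. Without BMP24 KD 1 and dextran 3, a setting chosen after seeing the data, 56 were lower. With roles exchanged, that setting gave 189 models higher with BMP24 KD, 483 higher and 226 lower with dextran, and DESeq2 size factors gave 163 higher and 53 lower with BMP24 KD.

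The count of 0 members called by edgeR held with TMM, DESeq2 size factors and library totals, and without a filter. It was also 0 by limma-voom, with each library left out and without BMP24 KD 1 and dextran 3. Over all models, edgeR against dextran then called 5 higher and 13 lower without a filter, 8 higher without dextran 1, 1 higher and 2 lower without BMP24 KD 1, and 6 higher and 36 lower without BMP24 KD 1 and dextran 3. DESeq2 called 1, model 1099, in each of the comparisons of DnTCF with dextran, with BMP24 KD and with their mean. With the replicate block 0 members were called as well, and 16 of the 43 had an unadjusted p under 0.05 against dextran, where the fit without it gave 20. Over all 13559 models these fits had 213 higher and 342 lower with the block, and 264 and 398 without it. Same-numbered libraries did not deviate together more than differently numbered ones did. Correlations of deviations from group means were over 0.1 for 3 of 9 same-numbered pairs (range -0.222 to 0.335). They were over 0.1 for 8 of 18 differently numbered pairs (range -0.449 to 0.392). The closest match of a library had the same number for 2 of 9 and another number for 7, so the numbers were not taken as pairs. No named model changed direction under any alternative in the comparisons of DnTCF with the other groups. The rule and the choice of the widest gaps largely fix this outcome, so nothing is read from it. Between BMP24 KD and dextran, which the rule held alike, the sign changed over the settings for every named model. Over these settings the adjusted p of model 1099 against dextran ran from 0.00258 to 1. The lowest count of a member in a DnTCF library was 13 among the higher and 2 among the lower models, which limits the precision of both.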
